A study of Mus musculus with 6 samples.

Results

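The glycolysis genes described here are Slc2a1, Hk1, Hk2, Pfkl, Pfkp, Aldoa, Pgk1, Eno1, Ldha and Pdk1. They were chosen by name, for the steps they serve, and make up 10 of the 24393 gene rows in the count lists. Glycolysis carries glucose to pyruvate in the cytoplasm: facilitative transporters bring glucose in, hexokinases trap it as glucose 6-phosphate, phosphofructokinase commits it to the pathway, and the lower enzymes recover ATP. Pyruvate is then reduced to lactate by lactate dehydrogenase or enters the mitochondrion through pyruvate dehydrogenase, which the pyruvate dehydrogenase kinases inhibit. Many of these genes are textbook targets of the hypoxia-inducible factors, and pluripotent stem cells are known for running glycolysis even when oxygen is present.

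The cells were KH2 mouse embryonic stem cells, labelled as strain C57/BL/6, in which a doxycycline-inducible gene can be placed by FLP recombination. The HOXA13 group (n = 3) carried a FLAG-tagged human HOXA13 gene in hygromycin-selected clones, and the CONTROL group (n = 3) was labelled by its genotype only. All samples had been differentiated towards definitive endoderm over a feeder layer of M15 cells, which derive from mesoderm, with Activin-A, basic FGF, CHIR and Noggin. Doxycycline (1.25 µg/ml) was given from day 4 to switch HOXA13 on, a CXCR4 and E-cadherin double-positive gate was sorted at day 6, and the sorted cells were kept for 1 more day with doxycycline before RNA was taken. The protocol text is shared by both groups and does not say whether CONTROL cells received doxycycline. The methods call the samples biological replicates, without saying whether each of the 6 was a separate clone.

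Each library held between 12279884 and 17331638 counts, so that 3 counts, the smallest level read here as signal, were between 0.176 and 0.240 CPM (counts over the TMM-normalised library size; this limit covers counting error only). A row under the human identifier ENSG00000106031 had 0 counts in the 3 CONTROL libraries and 192, 449 and 398 CPM in the HOXA13 libraries. Of 10 definitive endoderm markers, 8 were tested, with 4 at positive and 4 at negative log2 fold changes. Eomes was highest, at 49.0 to 111 CPM in CONTROL and 24.4 to 41.9 CPM in HOXA13, and Gata6 lay between 5.69 and 35.8 CPM. Sox17 lay between 0.975 and 4.84 CPM, Cxcr4, whose product was used in the sort, between 2.25 and 11.3 CPM, and Cer1 was listed at 0. Cdh1, the gene of E-cadherin, the other sorted product, was at 192, 1292 and 702 CPM in CONTROL, against 1732, 1690 and 1893 CPM in HOXA13. Its groups did not overlap, as for 20.0% of all genes (log2 fold change 1.28, SE 0.55, edgeR adjusted p = 0.351). CONTROL replicate 2 stood apart: over the 13600 tested genes its Spearman's rho was 0.908 and 0.931 with the other CONTROL libraries, which had 0.977 between themselves, and 0.951 to 0.961 with the HOXA13 libraries. Where leaving it out changes a call of a glycolysis, glucose metabolism or hypoxia gene, the value without it is also given, as are some other values that move. In bulk RNA of this kind, fewer cells of a type and less RNA per cell cannot be told apart.

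None of the glycolysis genes passed the main test between HOXA13 and CONTROL. With all 6 libraries the largest fitted differences were those of the genes of glucose entry and trapping, and most of the later genes were fitted near 0. This order rests on CONTROL replicate 2: without it Pdk1 (1.31) came second to Slc2a1 (1.51), Pfkl (0.55) lay beside Hk1 (0.53), and the median log2 fold change of the 9 genes was 0.53 in place of 0.03. Mean Slc2a1 was 2.22-fold, Hk1 1.59-fold and Hk2 1.44-fold the CONTROL level in the fit, while Pfkl, Aldoa, Pgk1, Ldha and Pdk1 had fitted log2 differences between -0.09 and 0.08. Of the 10 genes, 9 had counts and all 9 passed the expression filter, and Eno1 had none. With edgeR's quasi-likelihood test and Benjamini-Hochberg adjustment over all genes, 0 of 9 had an adjusted p under 0.05, where 0.309% of all tested genes did. At an unadjusted p under 0.05 there were 2 of 9, both higher in HOXA13, beside 8.05% of all genes higher and 6.02% lower. The median log2 fold change of the 9 was 0.03, and that of all 13600 genes was -0.01. A positive log2 fold change was fitted for 7 of 9, where 48.8% of all genes had one, but for 5 of 9 with RLE and 4 of 9 with upper quartile scaling, since Pfkl, Aldoa and Pgk1 lie at about 0. The number was 8 of 9 without CONTROL replicate 2, 3 of 9 without CONTROL replicate 1 or without CONTROL replicate 3, and 4, 6 and 5 of 9 without HOXA13 replicate 1, 2 or 3.

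**Figure D1:**
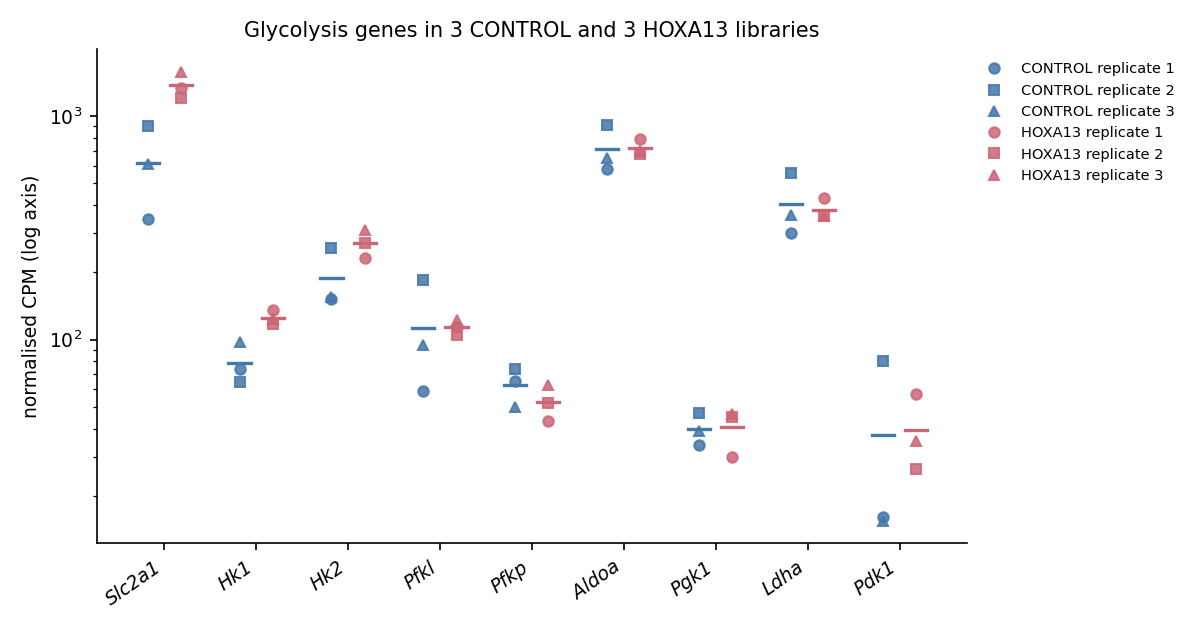
Normalised CPM (log axis) of the 9 counted glycolysis genes in each library, with CONTROL in blue, HOXA13 in red, the marker shape giving the replicate number and the line the group mean (n = 3). The groups separate for Slc2a1 and Hk1, and the square of CONTROL replicate 2 is the highest point for Pfkl, Pfkp, Aldoa, Pgk1, Ldha and Pdk1.

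Slc2a1 encodes GLUT1, the transporter that gives most cells their basal glucose uptake (mm9 chr4:118781316-118809935, plus strand). It measured 345, 901 and 608 CPM in CONTROL replicates 1, 2 and 3, in that order, and 1334, 1205 and 1578 CPM in the HOXA13 replicates. Every HOXA13 library was above every CONTROL library, with CONTROL replicate 2 the nearest to them. The log2 fold change was 1.15 (SE 0.32, n = 3 per group) with an edgeR adjusted p of 0.169. Leaving out CONTROL replicate 2 raised it to 1.51, with an adjusted p of 0.00626, and DESeq2 on all 6 libraries gave 1.13 with an adjusted p of 0.0136. The edgeR value fell to 0.84 without CONTROL replicate 1 (edgeR adjusted p = 0.303). Without HOXA13 replicate 3 the edgeR value was 1.02 (edgeR adjusted p = 0.576).

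Hexokinase 1, the form found in most tissues, is encoded by Hk1 (mm9 chr10:61731603-61842656, minus strand). Its levels were 74.2, 65.0 and 97.8 CPM in the CONTROL libraries and 135, 118 and 123 CPM in the HOXA13 libraries. The groups did not overlap here either, and CONTROL replicate 2 was the lowest of the 6 rather than the highest of its group. The difference was 0.67 on the log2 scale (SE 0.19), with an edgeR adjusted p of 0.174, and without CONTROL replicate 2 it was 0.53 with an adjusted p of 0.0751. Slc2a1 and Hk1 were the 2 of 9 genes without overlap between groups, both higher in HOXA13; of all genes, 11.5% were non-overlapping and higher and 8.52% non-overlapping and lower, a pattern that none of the 9 had.

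Hexokinase 2, the inducible form, is encoded by Hk2 (mm9 chr6:82675019-82724448, minus strand). It measured 152, 257 and 155 CPM in the CONTROL libraries and 231, 271 and 311 CPM in the HOXA13 libraries. CONTROL replicate 2 lay above HOXA13 replicate 1, and the other CONTROL libraries lay below all HOXA13 libraries. The log2 fold change was 0.53 (SE 0.24, edgeR adjusted p = 0.377), and without CONTROL replicate 2 it was 0.80 with an adjusted p of 0.0154. Without CONTROL replicate 1 it was 0.38 (edgeR adjusted p = 0.762). Per length of the longest transcript, Hk2 RNA exceeded Hk1 RNA in every library, by 1.59, 3.07 and 1.23 times in CONTROL and 1.33, 1.79 and 1.96 times in HOXA13, with overlap between the groups (exact permutation test of the log2 ratio, two-sided p = 0.9). Since 3 against 3 cannot go below 0.1, this test could not have passed a threshold of 0.05, here or for the other ratios, and its p does not show that a ratio was the same in both groups. With the summed length of all exons in its place the ratio was 2.26 to 5.65, so the size of such a ratio depends on the length used, while its difference between the groups (-0.12 on the log2 scale) does not.

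The committed step is catalysed by phosphofructokinase, of which Pfkl encodes the liver form and Pfkp the platelet form. Pfkl (mm9 chr10:77449692-77472828, minus strand) was at 58.8, 186 and 94.7 CPM in CONTROL, against 114, 105 and 122 CPM in HOXA13. The 3 HOXA13 values lay within the CONTROL range, which CONTROL replicates 1 and 2 spanned, and the log2 fold change was 0.01 (SE 0.37, 95% interval -0.84 to 0.86). Without CONTROL replicate 2 the Pfkl difference was 0.55, with an edgeR adjusted p of 0.125. Pfkp (mm9 chr13:6579014-6648023, minus strand) was at 65.7, 73.6 and 49.8 CPM in CONTROL, against 43.1, 52.1 and 62.7 CPM in HOXA13. These ranges overlapped, and Pfkp had the lowest log2 fold change of the 9 genes, -0.26 (SE 0.22, edgeR adjusted p = 0.680). Without CONTROL replicate 2 the Pfkp difference was -0.15. Per length, the ratio of Pfkp to Pfkl was 0.894, 0.317 and 0.421 in CONTROL, against 0.302, 0.395 and 0.411 in HOXA13 (exact permutation test, two-sided p = 0.4), and 0.177 to 0.523 with the summed exon length.

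Aldoa encodes the aldolase that splits fructose 1,6-bisphosphate (mm9 chr7:133938748-133944265, minus strand). It had 578, 917 and 646 CPM in the CONTROL libraries and 792, 678 and 699 CPM in the HOXA13 libraries, all of the latter within the CONTROL range. Its log2 fold change was 0.02 (SE 0.20) with a 95% interval of -0.45 to 0.48, so a change of the size fitted for Slc2a1 lies outside the interval for Aldoa; without CONTROL replicate 2 it was 0.22. Pgk1, the first ATP-forming enzyme of the pathway (mm9 chrX:103382439-103399038, plus strand), had 33.8, 46.9 and 39.0 CPM in CONTROL, against 30.05, 45.2 and 46.5 CPM in HOXA13. The Pgk1 groups overlapped almost entirely, with a log2 fold change of 0.03 (SE 0.24, 95% interval -0.53 to 0.58). Xist, a marker of an inactive X chromosome, ranged from 0 CPM in HOXA13 replicate 1 to 51.1 CPM in HOXA13 replicate 2, and Pgk1 is X-linked and was lowest in HOXA13 replicate 1; the part of X dosage in this was not tested.

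At the end of the pathway, Ldha encodes the lactate dehydrogenase subunit that favours lactate formation (mm9 chr7:54096845-54110997, plus strand). It measured 301, 554 and 361 CPM in CONTROL, against 431, 356 and 358 CPM in HOXA13, again inside the CONTROL range, with a log2 fold change of -0.09 (SE 0.24, 95% interval -0.64 to 0.46) that was 0.19 without CONTROL replicate 2. Relative to Ldhb, the subunit that favours pyruvate, Ldha was 3.53, 5.63 and 4.34 times as high per length in CONTROL, against 4.29, 4.98 and 4.43 times in HOXA13 (exact permutation test, two-sided p = 0.9). Pdk1, the kinase that holds pyruvate dehydrogenase inactive (mm9 chr2:71711281-71741915, plus strand), was the most variable of the genes. Its levels were 16.1, 80.7 and 15.5 CPM in the CONTROL libraries and 57.4, 26.3 and 35.3 CPM in the HOXA13 libraries. CONTROL replicate 2 was above all HOXA13 libraries and the other CONTROL libraries were below them all. The log2 fold change was 0.08 (SE 0.64, 95% interval -1.40 to 1.57), and without CONTROL replicate 2 it was 1.31 with an edgeR adjusted p of 0.0323.

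**Figure D2:**
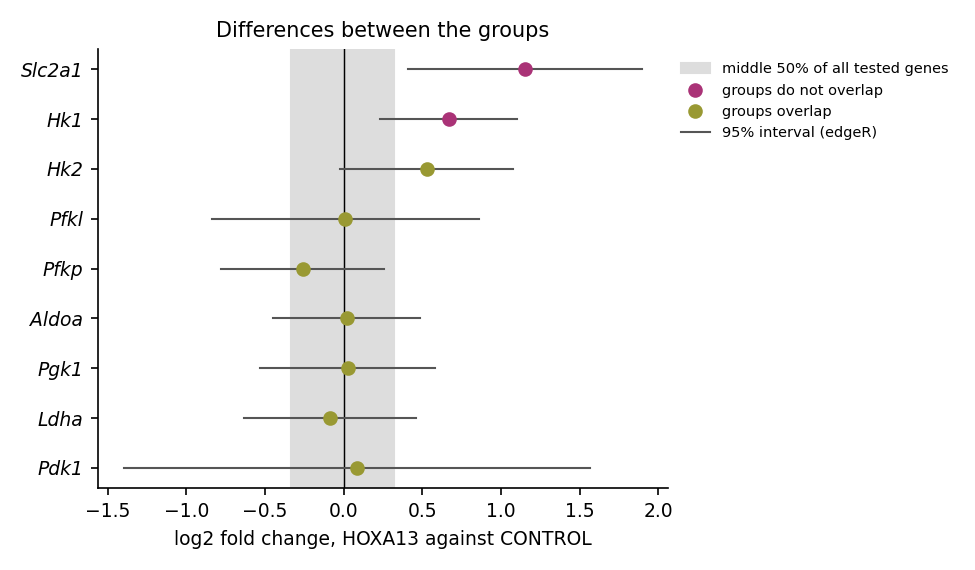
Log2 fold change of HOXA13 against CONTROL (points) with its 95% interval from edgeR (lines) for the 9 tested genes, purple where the groups do not overlap and olive where they do; the grey band holds the middle 50% of all tested genes, from -0.33 to 0.32. Slc2a1, Hk1 and Hk2 lie to the right of the band, Pfkp lies inside it on the lower side and the other 5 genes sit near 0 with intervals of unequal width.

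Without CONTROL replicate 2, which leaves 2 CONTROL and 3 HOXA13 libraries, 3 of 9 genes were called (Slc2a1, Hk2 and Pdk1), all higher, where that fit called 7.92% of all genes higher and 14.2% in either direction. Limma voom, which down-weights deviant libraries, also called 3 of 9 (Slc2a1, Hk1 and Hk2), all higher, where it called 9.11% of all genes higher and 15.4% in either direction. DESeq2 called Slc2a1 alone, higher, where it called 3.13% of all genes higher and 5.07% in either direction. The other 11 alternatives called 0 of the 9. The library that changes the calls also differs in the levels of pluripotency and proliferation markers. The summed level of 10 pluripotency markers was 132, 1421 and 227 CPM in CONTROL, against 788, 487 and 481 CPM in HOXA13. Of the 10, 5 had positive and 5 negative log2 fold changes. Klf4 took 93.0, 252 and 132 CPM of the sum in CONTROL, against 242, 279 and 226 CPM in HOXA13. Pou5f1 was at 0.851, 310 and 5.77 CPM in CONTROL, against 75.9, 10.1 and 15.3 CPM in HOXA13. The summed level of 12 proliferation genes was 862, 2091 and 812 CPM in CONTROL, against 1949, 1560 and 1593 CPM in HOXA13. All 12 had positive log2 fold changes (median 0.43), where 48.8% of all genes had one. Of the 12, 0 had an unadjusted p under 0.05 by edgeR, beside 14.1% of all genes, and 0 were without overlap, beside 20.0%. CONTROL replicate 2 was highest in both sums and HOXA13 replicate 1 came next, as for Aldoa, Ldha and Pdk1. Among the other genes highest in CONTROL replicate 2, HOXA13 replicate 3 came next for Pfkl and Pgk1, and CONTROL replicate 1 for Pfkp. What part pluripotency or proliferation has in the glycolysis values was not tested.

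The separation of the groups for Slc2a1 had its counterpart in markers of epithelium. The summed level of 12 epithelial markers, Cdh1 among them, was 1676, 5711 and 3993 CPM in CONTROL, against 6809, 7582 and 8605 CPM in HOXA13. All 12 markers had positive log2 fold changes, where 48.8% of all genes had one. Of the 12, 9 were non-overlapping and higher, where 11.5% of all genes were, 6 had an unadjusted p under 0.05, all higher, beside 8.05%, and 0 passed the adjusted threshold, beside 0.309%. Slc2a1 and this sum placed the CONTROL libraries in the same order, and HOXA13 replicate 3 was highest in both. The summed level of 12 mesenchymal markers ran the other way within CONTROL, at 10292, 2747 and 8416 CPM, and was 2297, 5746 and 5704 CPM in HOXA13. Of the 12, 10 had negative and 2 positive log2 fold changes (median -1.57), none passing the adjusted threshold, and most of the sum in HOXA13 was Fn1, the fibronectin gene, at 1997, 4631 and 4976 CPM (log2 fold change 0.35; named after its values were seen). Markers of the mesonephric lineage from which the M15 feeder derives were low throughout, with sums of 26.1, 37.9 and 27.8 CPM in CONTROL, against 13.8, 21.0 and 12.4 CPM in HOXA13. Of these 7 markers, 6 were tested, and all 6 had negative log2 fold changes (median -0.94), where 48.8% of all genes had positive ones. Of the 6, 2 were non-overlapping and lower, where 8.52% of all genes were, and 0 passed the adjusted threshold. Whether the make-up of the sorted cells has a part in the glycolysis values was not tested.

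The 10 genes together took 1625, 3081 and 2068 CPM in CONTROL (2258 ± 746, SD, n = 3), compared with 3168, 2857 and 3336 CPM in HOXA13 (3120 ± 243, SD, n = 3). CONTROL replicate 2 fell within the HOXA13 range and the other CONTROL libraries fell below it. Slc2a1 made up 87.5% of the difference between the group means. Without Slc2a1 the sum was 1280, 2180 and 1460 CPM in CONTROL, against 1834, 1652 and 1758 CPM in HOXA13, so that CONTROL replicate 2 was above all HOXA13 libraries and the other CONTROL libraries were below them all. The HOXA13 mean of this sum was 6.59% above that of the 3 CONTROL libraries and 27.6% above that of CONTROL replicates 1 and 3. On the log2 scale the mean deviation of the 9 counted genes from their own averages was -0.54, 0.36 and -0.30 in the CONTROL libraries, against 0.17, 0.06 and 0.24 in the HOXA13 libraries.

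**Figure D3:**
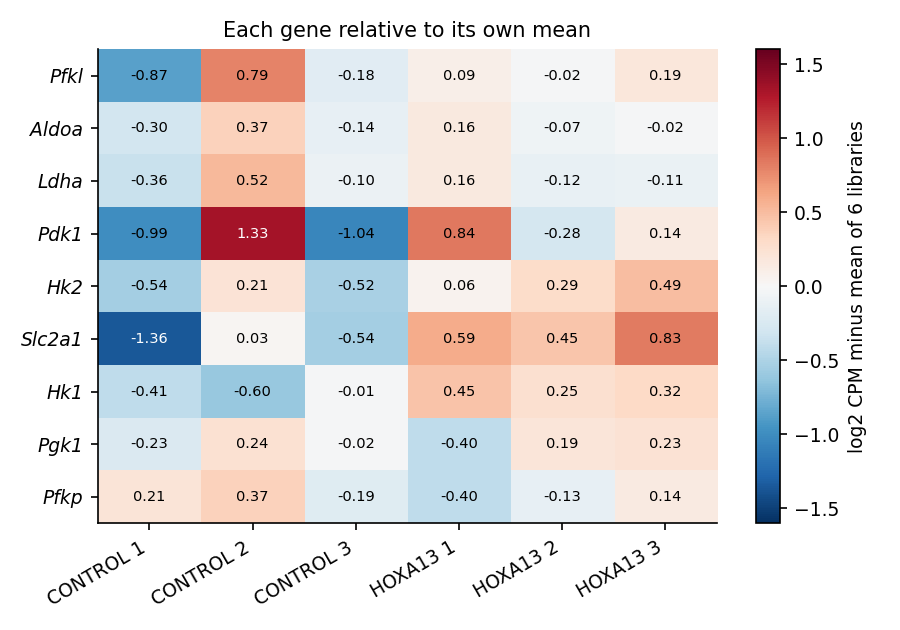
Log2 CPM of each gene minus its mean over the 6 libraries, in rows for genes and columns for libraries, from blue (below the mean) to red (above it). Pfkl, Aldoa, Ldha and Pdk1 peak in CONTROL 2, at 0.79, 0.37, 0.52 and 1.33, whereas Slc2a1, Hk1 and Hk2 are above their means in all 3 HOXA13 libraries and Hk1 is lowest in CONTROL 2.

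Compared per length (mean CPM per kilobase of the longest transcript), Aldoa stood highest at 464, followed by Slc2a1 at 382 and Ldha at 223. The order of Aldoa and Slc2a1 was not the same in both groups, as Aldoa was at 461 and Slc2a1 at 237 in CONTROL, and Aldoa at 467 and Slc2a1 at 526 in HOXA13. Hk1 and Pgk1 also changed places, with Hk1 at 18.5 and Pgk1 at 21.8 in CONTROL, and Hk1 at 29.3 and Pgk1 at 22.2 in HOXA13. The order depends on the length used: per kilobase of summed exons, Slc2a1 (349) stood above Aldoa (261) over all libraries, though not in CONTROL (217 against 259), and Hk1 was below Pgk1 in both groups. Hk2 followed at 41.6, Pfkl at 30.4, Hk1 at 23.9, Pgk1 at 22.0, Pfkp at 12.4 and Pdk1 at 7.43. Neighbours in this order overlapped in their library values, except Ldha, whose lowest library was at 170 and so above the highest of Hk2 at 56.4, and Pgk1, whose lowest library at 16.5 was just above the highest of Pfkp at 15.8. The genes whose profile over the 6 libraries was most like the mean of the 9 standardised profiles were L3mbtl2 (Pearson's r = 0.992), Hspa14 (0.989), Bag4 (0.989), Mta3 (0.987) and Arhgap19 (0.987). These were the top 5 of 8353 genes with at least 16 CPM, over 6 libraries that share their depth and normalisation between the genes, and r is given as a description. Each of the 5 had overlapping groups, and like the lower pathway they were highest in CONTROL replicate 2.

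Eno1, the main enolase of embryonic cells, was listed at 0 counts in all 6 libraries, although enolase is an enzyme every glycolytic cell uses (mm9 chr4:149610830-149622988, plus strand). A row named Eno1b, which RefSeq pairs with the gene model Gm5506, had between 1022 and 1354 counts in each library. Its levels were 77.2, 108 and 76.6 CPM in CONTROL, against 84.4, 62.0 and 76.0 CPM in HOXA13. The value of Eno1 therefore cannot be read as absence of enolase RNA. To see how far sequence is shared, each run of 75 bases, the read length, in a gene's longest coding transcript was searched in the mm9 genome for exact copies at other loci; this check was chosen after the zeros were seen. Of the Eno1 runs 65.4% had a copy elsewhere, at loci that include Gm5506, and the remaining 34.6%, with no exact copy elsewhere, gave no count either. For Pgk1 the share was 91.4%, for Ldha 7.15% and for Aldoa 1.49%, and the other 6 genes had no such copy. No exon base of the 10 genes was shared with another gene on the same strand, and at most 3.96% (Pfkp) lay opposite an exon of another gene.

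The Pgk1 level is accordingly uncertain, and the same holds for Gapdh, the usual reference gene, with 85.4% of its runs repeated. Gapdh measured only 8.51, 11.6 and 7.05 CPM in CONTROL, against 4.23, 6.03 and 6.12 CPM in HOXA13. How reads with several alignments were counted is not stated, and its part in these low levels was not tested. The stretches below are the ones with the most copies in the coding sequences of Gapdh (48 copies elsewhere) and, for contrast, Aldoa (1 copy). They are written 5′ to 3′ from the GENCODE transcripts in lower case, and a read lying in either of them has no single origin in the genome.
Gapdh: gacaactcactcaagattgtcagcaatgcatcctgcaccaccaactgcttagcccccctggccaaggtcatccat
Aldoa: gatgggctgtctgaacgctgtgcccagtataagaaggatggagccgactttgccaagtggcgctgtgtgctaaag

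**Figure D4:**
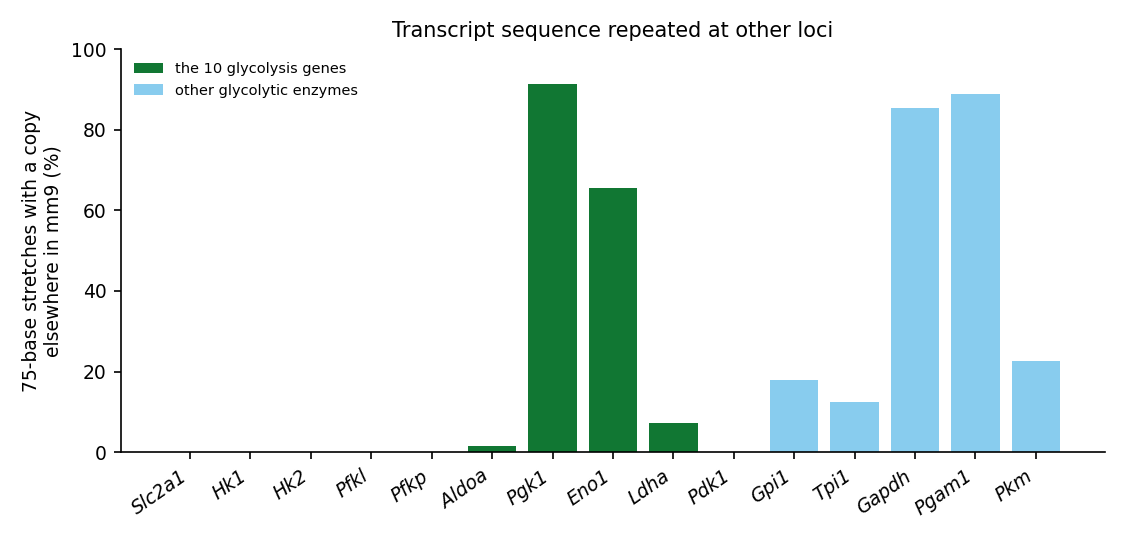
Share (%) of all 75-base runs of a gene's longest coding transcript with an exact copy elsewhere in mm9, in green for the 10 glycolysis genes and in light blue for other glycolytic enzymes. Pgk1, Eno1, Gapdh and Pgam1 exceed 65%, while Slc2a1, Hk1, Hk2, Pfkl, Pfkp and Pdk1 are at 0%.

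The promoters of the genes were read for the core of the hypoxia response element, because several of them are known targets of the hypoxia-inducible factors. RefSeq promoter windows (GRCm38.p6, 250 bases before to 50 after the start, 17 windows) matched all 10 genes. The letters ACGTG or GCGTG, on either strand and with overlaps counted, were found in 14 of the 17 windows and in at least 1 window of each gene. They are also found in 43.8% of all 32851 promoters, and the 17 windows ranged from 40.3% to 69.0% in GC content. Ldha had the most, 7 in the window of its first listed start, and 3 or more occurred in windows of 3 of the genes and in 8.93% of all promoters. The letters CAATAAA and TCGTAAA, which resemble sites bound by HOX proteins of the 13th paralogue group, were found in none of the 17 windows and in 4.60% and 0.597% of all promoters. A match in these letters is not a bound site. The stretches shown are from 8 of the genes: Slc2a1 and Hk1, whose groups did not overlap, Hk2, and 5 of those that were highest in CONTROL replicate 2. Each holds the upstream cores that lie closest together in a window, in capitals and not always all of them, and is written 5′ to 3′ on the gene's strand, so that CACGT and CACGC mark a core on the opposite strand.
Slc2a1, chr4:119108669-119108728, plus strand: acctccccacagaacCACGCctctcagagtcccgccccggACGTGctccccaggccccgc
Hk1, chr10:62340422-62340451, minus strand: ttggcactgtgccacCACGCGTGaccgcgc
Hk2, chr6:82774487-82774521, minus strand: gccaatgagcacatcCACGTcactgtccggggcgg
Pfkl, chr10:78009887-78009921, minus strand: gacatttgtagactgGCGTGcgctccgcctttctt
Pfkp, chr13:6648775-6648854, minus strand: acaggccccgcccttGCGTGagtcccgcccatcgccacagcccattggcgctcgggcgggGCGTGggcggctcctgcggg
Aldoa, chr7:126799361-126799395, minus strand: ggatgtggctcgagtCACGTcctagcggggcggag
Ldha, chr7:46845741-46845789, plus strand: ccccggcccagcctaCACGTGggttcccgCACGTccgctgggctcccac
Pdk1, chr2:71873131-71873165, plus strand: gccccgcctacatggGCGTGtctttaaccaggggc

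Of 9 hypoxia-inducible factors and regulators of them, all tested, 0 had an adjusted p under 0.05 and 0 an unadjusted p under 0.05 by edgeR, where 14.1% of all genes had one. None was called by DESeq2 or limma voom, which called 5.07% and 15.4% of all genes. Hif1a, the oxygen-regulated subunit, was at 247, 250 and 269 CPM in CONTROL, against 230, 266 and 247 CPM in HOXA13, with a log2 fold change of -0.04 (SE 0.14). Arnt, its partner subunit, and Egln1, the prolyl hydroxylase that marks it for destruction, had log2 fold changes of 0.11 and -0.13 with overlapping groups. Without CONTROL replicate 2 the values of Arnt and Egln1 were 0.02 and -0.30. Vhl, part of the ubiquitin ligase that removes it, was at 42.4, 32.9 and 44.4 CPM in CONTROL, against 26.7, 30.7 and 29.1 CPM in HOXA13, without overlap (log2 fold change -0.47, edgeR adjusted p = 0.361). RNA levels do not measure the protein, which is regulated by its stability.

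Of 20 other hypoxia-induced genes, 19 were tested, 0 passed the adjusted threshold, and 9 had positive and 10 negative log2 fold changes (median -0.15). The sign of this median rests on CONTROL replicate 2. Without it Ddit4, which gives the median in both fits, turned from -0.15 to 0.12. Vegfa turned from -0.30 to 0.002, and no other tested gene of the list changed sign. The 3 with an unadjusted p under 0.05, beside 14.1% of all genes, were lower in HOXA13, namely Plod2, P4ha1 and Pfkfb3, which is described with its family. Plod2, a collagen lysyl hydroxylase, was at 463, 118 and 400 CPM in CONTROL, against 104, 178 and 154 CPM in HOXA13. P4ha1, a collagen prolyl hydroxylase, was at 99.7, 44.9 and 119 CPM in CONTROL, against 33.2, 52.8 and 50.7 CPM in HOXA13. In both, CONTROL replicate 2 lay among the HOXA13 libraries, as it did in the sum of the mesenchymal markers. Without it edgeR called Plod2 (-1.58, adjusted p = 0.00336) and P4ha1 (-1.28, adjusted p = 0.00759) lower. That fit and limma voom also called Ndrg1 and Ero1l, both higher, whose log2 fold changes were 0.86 and 0.47 with all libraries and 1.503 and 0.685 without CONTROL replicate 2.

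The wider set of glucose metabolism and hypoxia genes, 83 in number, had 68 tested members and 0 with an adjusted p under 0.05 by edgeR. There were 13 at an unadjusted p under 0.05, 7 higher and 6 lower, where 14.1% of all genes reached it, and 20 had no overlap between the groups, where 20.0% of all genes had none. DESeq2 called 5 of them (Fbp2, Pfkfb2, Rpe and Rpia higher and Pfkfb3 lower), where it called 5.07% of all genes. Limma voom called 15, where it called 15.4% of all genes. Without CONTROL replicate 2 edgeR called 14, of which 11 were higher and 3 lower, where it called 14.2% of all genes, and the calls without that library named for single genes of these lists are to be read against this share.

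Among the transporters, Slc2a3, which encodes the high-affinity transporter GLUT3, was the most abundant. It was at 486, 5763 and 1370 CPM in CONTROL, against 6094, 3780 and 4343 CPM in HOXA13. CONTROL replicates 1 and 3 were below every HOXA13 library and CONTROL replicate 2 was among them (log2 fold change 0.90, SE 0.74, edgeR adjusted p = 0.666). Without CONTROL replicate 2 the Slc2a3 difference was 2.33 (edgeR adjusted p = 0.00805). Per length, Slc2a3 exceeded Slc2a1 in CONTROL replicate 2 and in the 3 HOXA13 libraries, by 2.67, 1.90, 1.31 and 1.15 times, and was below it in CONTROL replicates 1 and 3, at 0.587 and 0.939 times. The lactate carrier Slc16a1 was at 82.6, 273 and 107 CPM in CONTROL, against 348, 295 and 309 CPM in HOXA13, without overlap (log2 fold change 1.04, SE 0.41, edgeR adjusted p = 0.306, and 1.72 with 0.00114 without CONTROL replicate 2). Bsg, its chaperone, had overlapping groups and a log2 fold change of -0.28, and Slc2a2, the transporter of liver and mature gut, had no count.

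Fructose 2,6-bisphosphate, the activator of phosphofructokinase, is made and removed by the Pfkfb enzymes. Of the 4 isoforms, Pfkfb3 had a negative log2 fold change and the others positive ones. With all libraries the groups of Pfkfb1 (0.27) and Pfkfb4 (0.13) overlapped. Without CONTROL replicate 2 these values were 0.58 and 0.46, with neither gene called. Pfkfb3, whose product strongly favours synthesis, was at 96.6, 81.6 and 97.5 CPM in CONTROL, against 48.0, 55.4 and 40.6 CPM in HOXA13. No HOXA13 library reached the lowest CONTROL library, which was CONTROL replicate 2 (log2 fold change -0.94, SE 0.19, edgeR adjusted p = 0.0904). Pfkfb2, a kinase and phosphatase known from heart, was at 42.7, 83.9 and 48.7 CPM in CONTROL, against 107, 125 and 125 CPM in HOXA13, also without overlap (log2 fold change 1.03, SE 0.26, edgeR adjusted p = 0.147). Fbp2, the fructose bisphosphatase of muscle, was at 0.851, 9.43 and 3.75 CPM in CONTROL, against 55.9, 24.1 and 24.7 CPM in HOXA13 (log2 fold change 2.90, SE 0.76, edgeR adjusted p = 0.150). These are the 3 lowest p of the 6 tested genes of this list, 4 of which had groups without overlap, where 20.0% of all genes had none, and none of the 3 passed the threshold with edgeR on the full set. Without CONTROL replicate 2, where 14.2% of all genes were called, all 3 did, at -1.03 for Pfkfb3, 1.37 for Pfkfb2 and 3.90 for Fbp2.

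The pentose phosphate pathway, which branches off at glucose 6-phosphate to make NADPH and ribose, had 7 listed genes, all tested, with 6 at positive log2 fold changes, beside 48.8% of all genes, and 3 without overlap, all higher, beside 11.5%. Rpia, which makes ribose 5-phosphate, was at 8.65, 7.84 and 7.35 CPM in CONTROL, against 25.3, 20.5 and 32.1 CPM in HOXA13. This was the smallest adjusted p of the wider set (log2 fold change 1.71, SE 0.28, edgeR adjusted p = 0.0590), and the edgeR 4 quasi-likelihood method and edgeR without the expression filter called it. G6pdx, the entry enzyme, was at 58.9, 59.7 and 49.8 CPM in CONTROL, against 85.5, 79.8 and 84.7 CPM in HOXA13 (log2 fold change 0.57, SE 0.16, edgeR adjusted p = 0.173). Rpe, the epimerase beside Rpia, was at 75.5, 94.7 and 103 CPM in CONTROL, against 151, 157 and 134 CPM in HOXA13 (log2 fold change 0.70, SE 0.17, edgeR adjusted p = 0.132). Tkt, the transketolase and the most abundant of the list, had overlapping groups and a log2 fold change of 0.38. Without CONTROL replicate 2, Rpia (1.68), G6pdx (0.60), Rpe (0.71) and Tkt (0.80) were called higher by edgeR, where 7.92% of all genes were. Rpe and Pfkfb2 lie on chromosome 1, where the median over 470 genes with at least 16 CPM was 0.53 on the log2 scale. Tkt, Ero1l and Pdhb lie on chromosome 14, where it was 0.33 over 300 such genes. Eno3 and Pdk2 lie on chromosome 11, where it was -0.17 over 675 such genes. The part of these shifts in their values was not tested.

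**Figure D5:**
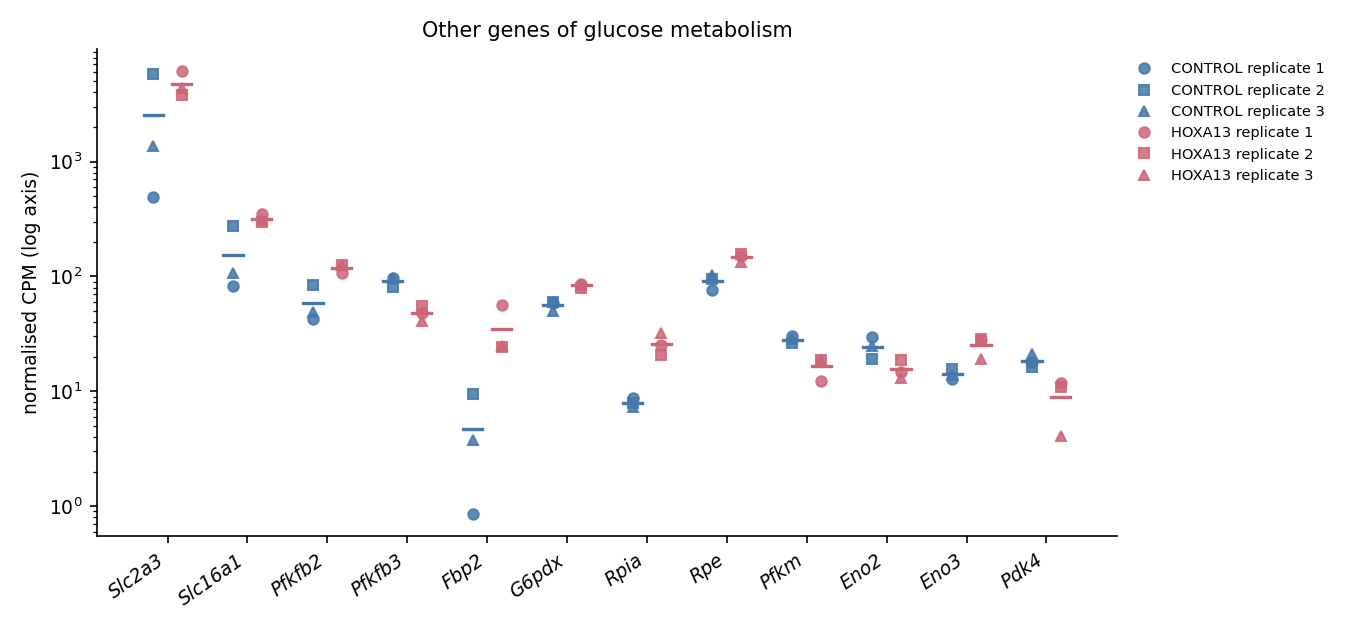
Normalised CPM (log axis) of 12 other genes of glucose metabolism in each library, drawn as in the plot of the glycolysis genes. Slc16a1, Pfkfb2, Fbp2, G6pdx, Rpia, Rpe and Eno3 are higher in all HOXA13 libraries, Pfkfb3, Pfkm, Eno2 and Pdk4 are lower in all of them, and Slc2a3 overlaps.

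Of the remaining enzymes of the pathway, 11 were tested, with 3 at positive and 8 at negative log2 fold changes (median -0.17). Without CONTROL replicate 2, Tpi1 turned from -0.36 to 0.01 and Pkm from -0.03 to 0.07, and no other of the 11 changed sign. Their median was then the value of Ldhb, -0.02. Of the 11, with all libraries, 4 were without overlap, where 20.0% of all genes were: Eno3 was higher, and Pfkm, Eno2 and Gapdh were lower. Pkm, the pyruvate kinase, was the most abundant enzyme at 1640, 2395 and 2136 CPM in CONTROL, against 2269, 1843 and 1915 CPM in HOXA13, with a log2 fold change of -0.03 (SE 0.19). Pfkm, the muscle phosphofructokinase, was at 30.1, 26.1 and 28.5 CPM in CONTROL, against 12.4, 18.9 and 18.7 CPM in HOXA13, without overlap (log2 fold change -0.76, SE 0.25, edgeR adjusted p = 0.233). Its ratio to Pfkl per length was 0.662, 0.182 and 0.390 in CONTROL, against 0.140, 0.232 and 0.199 in HOXA13, with overlap (exact permutation test, two-sided p = 0.3). Eno3, the muscle enolase, had a log2 fold change of 0.84 (SE 0.26, edgeR adjusted p = 0.200) and Eno2, the neuronal enolase, one of -0.66 (SE 0.28, edgeR adjusted p = 0.337), both without overlap.

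At the mitochondrial gate, 0 of 11 tested genes had an adjusted p under 0.05, where 0.309% of all genes did, and 4 were without overlap (1 higher and 3 lower), where 20.0% of all genes were. Pdk4, the starvation-induced kinase, was at 17.9, 16.4 and 21.1 CPM in CONTROL, against 11.8, 10.8 and 4.06 CPM in HOXA13 (log2 fold change -1.05, SE 0.42, edgeR adjusted p = 0.315). Pdk3 was lower without overlap (log2 fold change -0.28), and Pdp2, a phosphatase that reactivates the complex, was higher without overlap (0.63); neither reached an unadjusted p of 0.05. Pdha1, the catalytic subunit and the most abundant of the list, had overlapping groups and a log2 fold change of -0.02. Pdhb, the partner subunit, was at -0.07 with all libraries and at 0.59 without CONTROL replicate 2 (edgeR adjusted p = 0.0343). Per length, Pdk1 stood to the sum of Pdk2, Pdk3 and Pdk4 at 0.107, 0.603 and 0.108 in CONTROL, against 0.4995, 0.248 and 0.351 in HOXA13. This ratio followed Pdk1 itself, with CONTROL replicate 2 above all others (exact permutation test, two-sided p = 0.4).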

How the data were processed

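RNA of 3 CONTROL and 3 HOXA13 samples was analysed, grouped by their titles. The authors deposited 1 list of raw read counts by gene symbol per sample, made from directional poly-A libraries (75-base reads) aligned to mm9 with TopHat (2.0.14 in the submitters' processing notes) and counted with HTSeq 0.6.1p1. The annotation, the strandedness setting of HTSeq and its handling of multi-mapped reads are not given in the sources used here, so genes with near-identical copies are uncertain. Total counts ranged from 12279884 to 17331638.

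The counts were filtered with filterByExpr (minimum count 10, minimum total 15; 13600 of 24393 rows kept), TMM-normalised and tested with edgeR 4.0.16 (R 4.3.3; glmQLFit and glmQLFTest, group only, all 6 samples, Benjamini-Hochberg adjustment over all genes, threshold 0.05). Log2 fold changes are HOXA13 against CONTROL. The 95% intervals use the test's own degrees of freedom. Replicates are separate samples, and p-values measure only the spread between them. Alternatives were DESeq2 1.42.0, limma 3.58.1 voom with sample quality weights, RLE and upper quartile scaling, no filter, a mean of at least 50 counts, the edgeR 4 quasi-likelihood method, a replicate block and leaving out each replicate. The code was tested on simulated data.

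The members and the lists were chosen with earlier results of these data known. The text names all members. Of each metabolic or hypoxia list it names the genes past the threshold, or else the 3 with the smallest p at 5 CPM or more. The most abundant gene of each such list is added. Gapdh, Eno1b, Pgam1, Tpi1, Ddit4, Vegfa and single endoderm markers were named after their values were seen. So were Cdh1, Klf4, Pou5f1 and the further genes called by other tools. Slc2a2, Pfkfb1, Pfkfb4, Ldhb and Pdk2 are named outside this rule. Positions are from GENCODE M1 on mm9, and promoters from RefSeq on GRCm38.p6, which are different builds.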

Additional observations from a re-analysis of the deposited data

How the results depend on the processing

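The number of glycolysis genes called was 0 in the main analysis, 1 with DESeq2, 3 with limma voom and 0 to 3 when 1 replicate was left out, the 3 arising without CONTROL replicate 2. In the wider lists it was 0, 5 with DESeq2, 1 with no expression filter, 15 with voom, 1 with the edgeR 4 method and 0 to 14 with 1 replicate left out. Among all genes it was 42, 722 with DESeq2, 163 with no filter, 9 with the 50-count filter (mean of 50 or more), 2101 with voom, 106 with the edgeR 4 method and 0 to 2006 with 1 replicate left out, the 2006 again without CONTROL replicate 2. The median log2 fold change of the 9 genes was 0.41 with voom and -0.14 to 0.53 with 1 replicate left out. The causes were not tested.

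Slc2a1, Hk1 and Hk2 stayed positive, and Pfkp negative, under all 14 alternatives, though Pfkp ran from -0.42 to -0.0027, the latter with voom. With 1 replicate left out, Slc2a1 ran from 0.84 to 1.51, Hk1 from 0.53 to 0.83 and Hk2 from 0.38 to 0.80. Pfkl turned negative with DESeq2 (-0.013), RLE (-0.013), upper quartile (-0.041), no filter (-0.012) and the 50-count filter (-0.022), and ran from -0.32 to 0.55 with 1 replicate left out. Aldoa did so at -0.0025, -0.0024, -0.024, -0.0042 and -0.011, with -0.14 to 0.22 on leaving out. Pgk1 did so with upper quartile (-0.016) and the 50-count filter (-0.0027), with -0.10 to 0.19 on leaving out. Ldha was 0.044 with voom and -0.29 to 0.19 on leaving out, and Pdk1 -0.31 to 1.31. None of the values of opposite sign passed the threshold.

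The replicate numbers did not pair the samples: the deviations of same-numbered samples correlated at -0.210, -0.271 and 0.098. With the replicate number as a block, 0 glycolysis genes, 0 genes of the wider lists and 0 of all genes were called, and the median was 0.17. With a biological coefficient of variation of 41.5% and 3 libraries a group, the standard errors of the 9 genes were 0.19 to 0.64, and differences of 3.57 (Slc2a1) and 3.52 (Hk1) standard errors did not pass the adjusted threshold.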
